A study of Mus musculus with 10 samples.

Results

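Brown adipocytes in culture were followed from the preadipocyte state at day 0 through days 3, 5 and 7 of differentiation, and the day 0 array was set against the 3 later arrays taken as one group. These 4 arrays are part of a series of 10. The other 6 hold fat of chow-fed mice that had received a daily intraperitoneal injection for 7 days: 2 arrays of brown fat and 2 of white fat from saline-injected mice, and 2 of white fat from mice given 1 mg/kg of CL, which stimulates the β3-adrenergic receptor. Cells and mice are labelled wild type, and the labels give no strain, age or sex and do not say whether the cells were a primary culture or a line, what the differentiation medium held, or which mice gave each tissue sample. The series' design text speaks of 2 replicates, whereas each day of the culture had 1 array. No value from the cells therefore has a replicate error, and the calls on them rest on no test. A limma fit that treated the 3 later days as repeats was run only as an alternative setting, with its counts given at the end. The small number of arrays limits the precision throughout.

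Brown preadipocytes are fibroblast-like cells that are committed to the brown fat lineage but hold little lipid. On an adipogenic stimulus they leave the cell cycle, take apart much of their actin stress fibres and round up, and the transcription factors PPARγ and C/EBPα switch on the genes of lipid storage together with those of mitochondria and heat production. Long non-coding RNAs are transcripts with little or no coding potential, some of which regulate this programme, and the array carries probes for such RNAs beside probes for protein-coding transcripts.

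Of 59709 probes, 59665 had a value on all 4 cell arrays, and 44602 entered the comparison because they were well above background on day 0 or on all 3 later days, by the flag that the scanner software gives each spot. Levels are given on the log2 scale, as the processed signal of a probe relative to its array's 75th percentile. A probe is called higher or lower here when it was at least 2-fold from its day 0 level, in the same direction, on each of days 3, 5 and 7. Just inside that limit the smallest change of the 3 days was log2 1.00013 for the higher probe ASMM9PARTA029934 and log2 1.00026 for the lower probe ASMM9PARTA037614. Just outside, it was log2 0.99954 for ASMM9PARTA011331 and log2 0.99975 for ASMM9PARTA009783.

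Most probes with a gene behind them could not be named. The files pair 123 probes with RefSeq transcript accessions, of which 116 matched 1 gene symbol, and give most others a design number alone. Of 89 genes on the lists for preadipocytes, adipocytes, brown adipocytes, other cell types and pathways, 5 were measured under their own symbol, namely Actb, G6pd2, Gapdh, Gk and Tfrc. None of the 14 preadipocyte and stromal markers and none of the 16 adipocyte markers was among them, nor were the markers of muscle, macrophages, endothelium or lymphoid cells, so the labelled cell type and stage were not checked against their defining genes. Day 0 held slide row 1 and days 3, 5 and 7 held rows 2, 3 and 4 of one slide column, scanned together, so day and slide row cannot be told apart. Between 68.09% and 78.28% of probes were well above background on the 4 arrays, as were 24.25% to 36.42% of the 1200 spots of the design's own negative probes and 0.974% to 2.27% of the spots that the scanner files mark as negative controls.

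On leaving day 0, 2409 probes were higher on every later day (5.40% of those that entered) and 3014 were lower (6.76%), while 39179 were neither. Day 0 stood apart from the later days. Across the probes that entered, day 0 correlated with days 3, 5 and 7 at Pearson's r of 0.936, 0.932 and 0.944, and the later days correlated with each other at 0.975 to 0.981; these are correlations across probes, which are not independent replicates. Between 20.41% and 28.75% of probes were 2-fold apart between day 0 and a later day, against 9.40% to 13.61% between later days. Much of the difference was present on day 3.

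The higher and lower probes reached their extremes at different days. Among called probes well above background on all 4 arrays, the 2037 higher ones were farthest from day 0 on day 7 in 47.32% of cases and on day 3 in 24.4%. The 1816 lower ones were farthest on day 3 in 50.83% and on day 7 in 21.09%, and their median change was log2 2.02 in size on day 3 and 1.77 on day 7. At the far end of this set, 14 probes were at least 64-fold higher on each later day and 2 were at least 64-fold lower, and at 8-fold the counts were 234 and 202. Over all 3014 lower probes, 43.36% were farthest from day 0 on day 3, 32.65% on day 5 and 23.99% on day 7. Their median change was then largest on day 5, at log2 2.20 in size against 2.13 on day 3. A further 4014 probes were 2-fold lower on day 5 alone, where the median change over all probes was the lowest of the 3 days (log2 -0.29, against -0.20 on day 3 and -0.14 on day 7). A total of 152 probes were 2-fold higher on one day and 2-fold lower on another.

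Which direction held more probes depended on the scaling and on the filter. The median of the mean change over all probes that entered was log2 -0.22, and centring each array on its median moved it up by 0.21 and gave 3073 higher and 2346 lower probes. Quantile normalization moved it up by 0.13 and gave 2785 and 2657. The deposited value table, which lists part of the probes, gave 1111 and 578 of 18886, so it does not compare scaling on the same probes. The filter was uneven by construction, since a probe could enter through the single day 0 array: 5728 probes entered that way alone, with 1198 lower calls and 0 higher calls, and 729 entered through the later days alone, with 372 higher calls and 0 lower calls. Where only the 38145 probes detected on every array were kept, 2037 were higher and 1816 lower. The 11151 dimmest probes held 264 higher and 1309 lower calls and the 11151 brightest 1191 and 703.

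**Figure D1:**
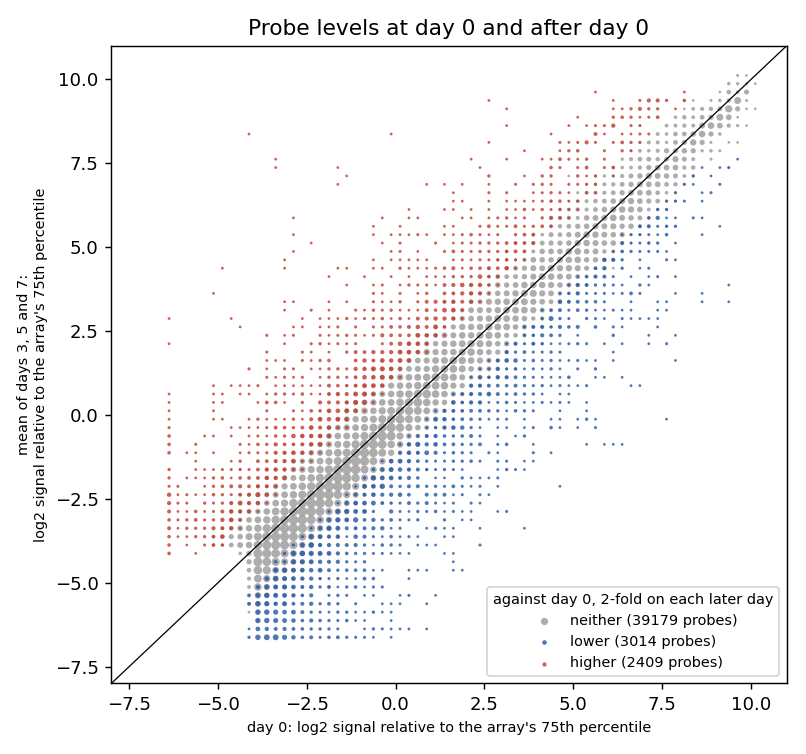
Level at day 0 (x axis) against the mean level of days 3, 5 and 7 (y axis), both as log2 signal relative to the array's 75th percentile, for the 44602 probes that entered, in bins of 0.25 log2 with larger points for more probes; the line marks equal levels. The 2409 higher probes (red) lie above the line at all levels, and the 3014 lower probes (blue) are dense at the dim end, where the 11151 dimmest probes held 1309 of them.

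By the scanner flag alone, 729 probes were well above background on days 3, 5 and 7 and not on day 0 (1.22% of those with values on all 4 arrays), and 997 were well above background on day 0 and on none of the later days (1.67%). For such probes the fold has only a lower bound, the bright side's mean against, on each dim array, either the probe's own signal or the dimmest signal that still counted as detected, whichever was higher. The bound is for the mean over the 3 later days, and a single later day can lie nearer to day 0. Of the 729 gained probes, 300 were at least 2-fold higher and 103 at least 4-fold higher by that bound. Of the 997 lost probes, 349 were at least 2-fold lower and 112 at least 4-fold lower. The balance turned with the definition of detection: against the 99th percentile of the spots of the design's negative probes, 5480 probes were gained and 218 lost. That percentile was a signal of 302.4 on day 0 and 137.0 to 147.8 on the later days, and its part in the result was not tested. Without day 3 the lost probes numbered 2340, and without day 5 or without day 7 the gained probes numbered 1297 and 1202. Of the design's 20 negative probes, 0 were gained, 0 were lost, 0 were higher and 1 was lower. Their mean changes were all negative, from log2 -0.13 to -1.21 with a median of -0.29, beside -0.22 over all probes that entered. Well above background on day 0 or on all 3 later days were 6 of the 20. The lower one, MM9NEGATIVE020, was the brightest of the 20 on each array, at -0.53 on day 0 and at -1.74, -1.76 and -1.70 on days 3, 5 and 7. Whether its spots set the 99th percentile above was not tested.

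Among probes with a gene symbol, 94 probes of 90 genes entered, of which 2 were higher, 7 were lower and 85 were neither, beside 5.40% higher and 6.76% lower over all probes. The median of their mean changes was log2 -0.33, against -0.22 over all probes. The higher ones measured Amy2a5, a pancreatic-type amylase that splits starch, and G6pd2, a retrocopy of the enzyme that opens the pentose phosphate pathway and yields NADPH. The lower ones measured the cytoplasmic actin Actb, Csprs (component of Sp100-rs), the axin-interacting protein gene Aida, the vesicle SNARE Vamp7, the PRAME-like gene Pramel39 and, with 2 probes, the phosphatase 2A regulatory subunit Ppp2r3d. All 9 probes kept their direction with quantile normalization, median scaling and normexp background correction, and all 9 stayed past 2-fold on each day with quantile normalization. With median scaling 6 of the 9 did, without Actb and both Ppp2r3d probes, and with normexp 6 did, without Pramel39 and both Ppp2r3d probes.

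The stretches just upstream of the start site are shown for 1 higher and 1 lower gene of this group, as RefSeq's GRCm38.p6 tables give them, to set the genes that moved furthest in each direction among the 4 with an entry beside each other. Each runs 5′ to 3′ on the gene's strand over the 250 bases before the annotated start, with the motif that a script found in capitals. Amy2a5 lies at chr3:113258700-113258949 on the minus strand, and Aida at chr1:183296810-183297059 on the plus strand.
Amy2a5: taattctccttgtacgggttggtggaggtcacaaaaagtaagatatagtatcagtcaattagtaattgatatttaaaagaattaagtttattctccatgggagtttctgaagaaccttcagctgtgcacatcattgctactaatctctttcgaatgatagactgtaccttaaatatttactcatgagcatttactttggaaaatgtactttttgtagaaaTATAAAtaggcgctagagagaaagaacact
Aida: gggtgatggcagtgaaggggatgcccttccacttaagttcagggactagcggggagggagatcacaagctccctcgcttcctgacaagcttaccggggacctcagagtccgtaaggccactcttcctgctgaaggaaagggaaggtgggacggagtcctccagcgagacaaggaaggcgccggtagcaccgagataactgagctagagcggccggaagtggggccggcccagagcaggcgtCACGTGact
The search covered both strands for 4 motifs, none of which contains another. These were the TATA box core TATAAA, the CCAAT box, the GC box GGGCGG and the E-box CACGTG. Amy2a5 held TATAAA starting 30 bases before the start site, in a stretch of 32.8% G and C. Aida held CACGTG starting 9 bases before it, in a stretch of 61.2% G and C. Over the same window, 12.37% of 32851 promoters held TATAAA, 33.85% held CCAAT, 32.74% held the GC box and 6.02% held the E-box. Of the other 2 genes in the tables, Pramel39 held CCAAT and TATAAA, at 87 and 28 bases before the start, and G6pd2 held none of the 4 motifs. A match is a run of letters and does not show that a factor binds there.

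Csprs had the largest difference in this group. Its level was 3.29 at day 0 and -1.11, -0.71 and -0.39 on days 3, 5 and 7, which is 16.2-fold lower in the mean and 12.8-fold lower on the nearest day. Csprs lies in a repeated gene cluster, and signal from near-identical copies cannot be assigned to 1 copy with certainty.

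Actb stood at 8.17 on day 0 and at 5.93, 6.37 and 7.01 on days 3, 5 and 7. It was lowest on day 3, 3.33-fold lower in the mean of the later days, and 2.24-fold lower on day 7. Actin is the filament of the stress fibres that spread fibroblasts carry. Aida went from 3.46 to 0.92, 1.75 and 2.03 and was 3.72-fold lower in the mean. Csprs, Actb, Aida and Vamp7 were all lowest on day 3.

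Vamp7, which serves in fusion of late endosomal and secretory vesicles, stood at 5.21 on day 0 and at 3.44, 3.68 and 3.81 afterwards. The 3 probes of Ppp2r3d lay close together, with mean changes from log2 -1.31 to -1.22; the third stayed outside the call because its change on day 5 was just under 2-fold. Pramel39 stood at -2.50 on day 0 and was not well above background on days 3 and 5, at -4.72 and -4.13, and it was at -3.86 on day 7; with normexp its mean change was log2 -0.73. It belongs to a multi-copy family, which leaves its assignment uncertain.

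G6pd2 went from 1.45 to 3.20, 3.15 and 3.01 and was 3.19-fold higher in the mean, with a spread over the later days far smaller than the step from day 0. It is close in sequence to G6pdx, so the probe may read both. Amy2a5 went from -3.84 to -1.32, -0.83 and -1.30, which is 6.42-fold in the mean. It was dim at day 0, and with normexp its mean change was log2 1.20 against 2.68. Amylase genes also form a cluster of near-identical copies.

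Actb aside, the reference genes followed by rule moved less than the called genes. Among genes not followed by rule, Gusb had a mean change of log2 -0.86 and Rpl13a of log2 -0.15. Gapdh, a glycolytic enzyme, stood at 9.38 on day 0 and at 9.79, 9.65 and 9.82 later, and Ppia, the cyclophilin, at 9.69 and then at 9.40, 9.29 and 9.67. The mean changes of Ppia, Hprt, B2m and Tbp were log2 -0.23, -0.31, -0.45 and -0.53, near or below the median of all probes at -0.22, and that of Gapdh was 0.37. With median scaling these were -0.02, -0.10, -0.25, -0.33 and 0.58. Tfrc, the transferrin receptor that takes up iron, had the largest positive difference among the genes followed and not called. It went from 6.88 on day 0 to 7.46, 8.02 and 8.04, and was not called because day 3 was under 2-fold above day 0. Gk, glycerol kinase, which is abundant in brown fat, was -0.27 on day 0 and -0.84, -0.94 and -0.41 later, so that no later day was above day 0. In the tissues Gk was higher in brown than in white fat after saline (log2 2.43, SE 0.34, limma adjusted p = 0.0117).

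**Figure D2:**
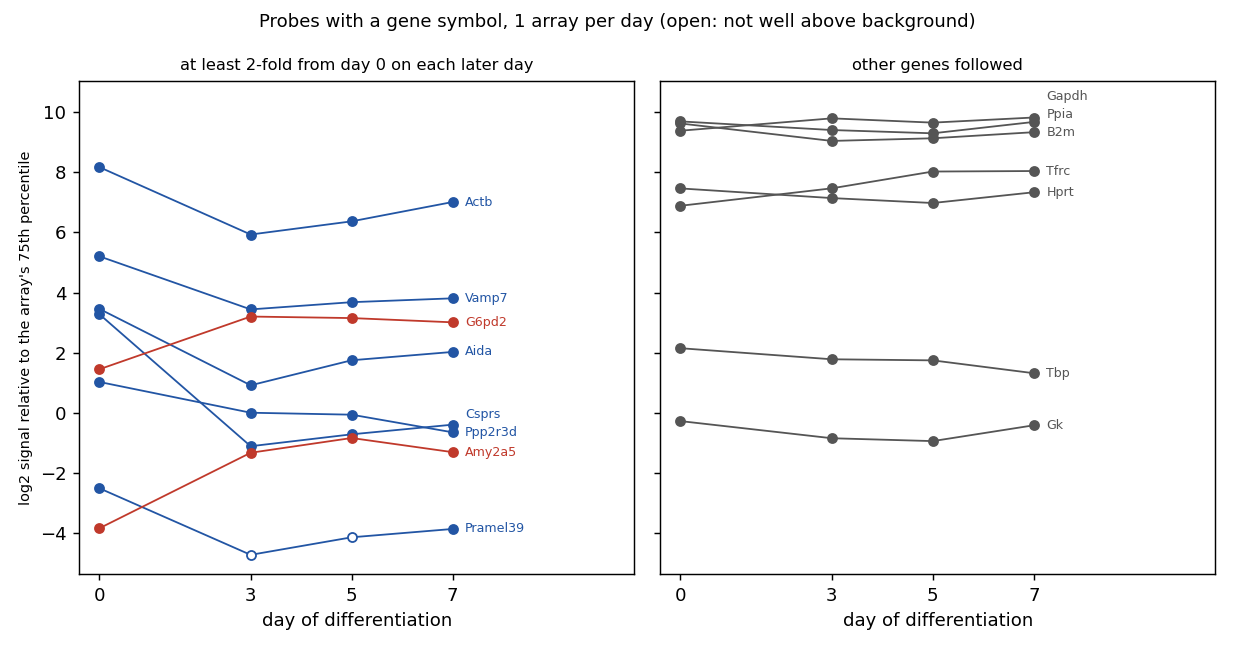
Level (y axis, log2 signal relative to the array's 75th percentile) by day of differentiation (x axis) for probes with a gene symbol, 1 array per day, with filled points where the probe was well above background. Left, genes called higher (red) or lower (blue): Actb, Aida, Csprs and Vamp7 are lowest on day 3. Right, genes followed by rule and not called, of which Tfrc reaches 8.04 on day 7 from 6.88 on day 0.

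The probes that gained most carried design numbers and no gene name. ASMM9PARTA031791 was not well above background on day 0, at -4.19, and stood at 7.77, 8.46 and 8.80 on days 3, 5 and 7. It was at least 5264-fold higher in the mean of the later days. ASMM9PARTA037462 stood at -3.26 on day 0 and at 7.24, 7.06 and 8.39 later, 1270-fold higher on the nearest day, and ASMM9PARTA029142 at -3.47 and then at 7.71, 6.81 and 7.35, 1244-fold higher on the nearest day. With normexp the mean changes of these 3 probes were log2 10.43, 9.36 and 9.13, against 12.54, 10.81 and 10.76. All 3 belong to a run of 24592 consecutive design numbers, 19928 to 44519, of which the deposited value table lists none; that table lists none of the mRNA (NM) accessions either, and the run is taken here as the protein-coding part of the design, which is an inference.

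ASMM9PARTA028119 and ASMM9PARTA037449, of the same run, were gained with at least 314.6-fold and at least 187.7-fold in the mean of the later days. They differed in course: the first was at 3.78 on day 3 and 4.68 on day 7, whereas the second climbed from 1.76 on day 3 to 4.04 on day 5 and 4.81 on day 7. Outside the run, ASMM9PARTA044911 was gained at least 71.8-fold and ASMM9PARTA014754 at least 32.2-fold in the mean of the later days. ASMM9PARTA003857 went from -1.93 to 3.99, 4.15 and 4.61, 60.6-fold higher on the nearest day.

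The losses were smaller than the largest gains. In the run, ASMM9PARTA031869 stood at 6.39 on day 0 and at -2.60, -0.26 and 0.43 later, 62.2-fold lower on the nearest day, and ASMM9PARTA029298 at 6.09 and then at -2.20, -0.55 and -0.06, 70.9-fold lower on the nearest day. Both were lowest on day 3. ASMM9PARTA032454 was lost with at least 36.4-fold, ASMM9PARTA044341 with at least 32.4-fold and ASMM9PARTA030346 with at least 25.0-fold. Outside the run, ASMM9PARTA019037 went from 4.63 to -2.72, -2.32 and -1.59, 74.9-fold lower on the nearest day, and ASMM9PARTA051601 and ASMM9PARTA004200 were lost with at least 24.3-fold and at least 18.4-fold.

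Non-coding transcripts named by a GenBank accession moved in both directions. BX523225 stood at -0.90 on day 0 and at 3.31, 3.83 and 5.28 later, 18.5-fold higher on the nearest day and highest on day 7. AK217121 went from 4.82 to 8.17, 8.11 and 8.12 and AK188366 from 5.60 to 8.50, 8.36 and 8.09, so that both stood near their later level from day 3. AK201409 went from 2.07 to 5.61, 5.46 and 4.44. AI530503 went from -0.14 to 3.04, 3.13 and 3.17. BB691294 was not well above background on day 0 and was at least 2.73-fold higher. With normexp BB691294 no longer passed 2-fold on each day (mean change log2 0.74).

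AF416735 and AK018648 led the lower accessions. AF416735 went from 4.26 on day 0 to -1.53, 0.07 and 0.71, 11.7-fold lower on the nearest day, and AK018648 went from 3.04 to -1.71, -0.55 and -0.71, 16.3-fold lower in the mean. AK038804 went from -0.42 to -3.80, -3.52 and -2.97. AK082188 was well above background on day 0 alone and was at least 5.32-fold lower. AA607596 and AY339874 were also well above background on day 0 alone, with bounds of at least 2.30-fold and at least 1.74-fold. With normexp AK082188, AA607596 and AY339874 no longer passed 2-fold on each day.

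**Figure D3:**
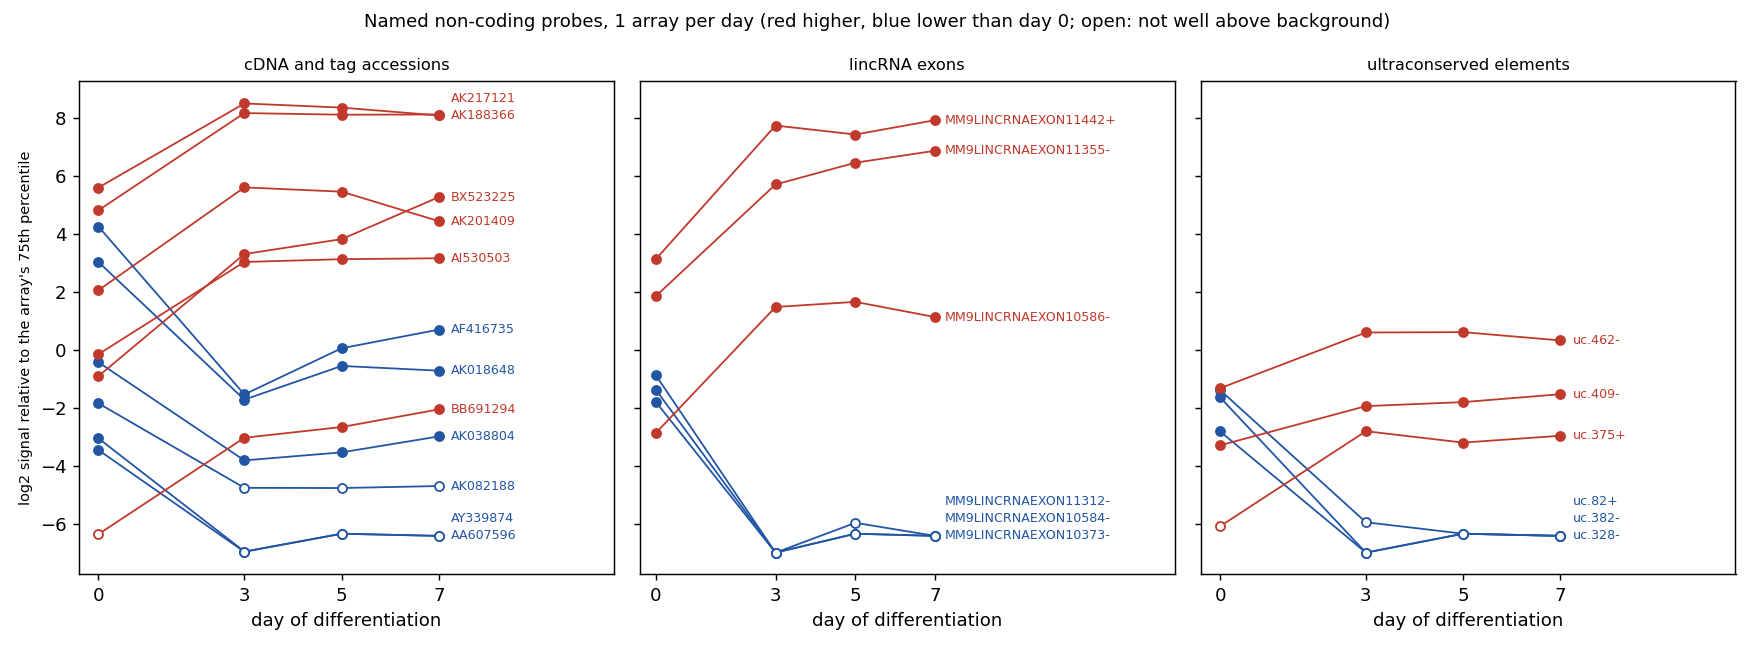
Level (y axis, log2 signal relative to the array's 75th percentile) by day of differentiation (x axis) for the named accessions, lincRNA exons and ultraconserved elements, 1 array per day; red probes were called higher and blue lower, and open points were not well above background. AK217121, AK188366 and MM9LINCRNAEXON11442+ are bright on each later day, and the lower lincRNA and ultraconserved probes are all open after day 0.

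By class of probe name, the lincRNA and ultraconserved probes held a smaller share of higher calls than the design numbers, as counts with no test. Large intergenic non-coding RNAs (lincRNAs) are transcribed between coding genes, and ultraconserved elements are stretches of the genome that human, mouse and rat share without a mismatch, some of which are transcribed. In the unlisted run of design numbers 1177 of 19586 probes were higher (6.01%) and 1510 lower (7.71%), and among the other design numbers 1114 of 19964 were higher (5.58%) and 1207 lower (6.05%), near the shares of all probes.

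Mouse lincRNA exons had 66 of 2474 probes higher (2.67%) and 139 lower (5.62%). The probes named humanlincRNA had 8 of 654 higher (1.22%) and 33 lower (5.05%), and those named mouselincRNA had 3 of 404 higher and 14 lower. Ultraconserved elements had 6 of 484 higher (1.24%) and 34 lower (7.03%). Many of these lower probes were not detected on every array: 72 of the 139 lower mouse lincRNA exon probes were well above background on all 4 arrays, as were 9 of the 33 humanlincRNA, 1 of the 14 mouselincRNA and 8 of the 34 ultraconserved probes. Within that set of detected probes, lower calls were 3.52% for mouse lincRNA exons, 1.80% for humanlincRNA, 0.32% for mouselincRNA and 2.25% for ultraconserved elements, beside 4.76% of all probes. Higher calls were 2.54%, 0.40%, 0.96% and 1.13%, beside 5.34%, and mouselincRNA then had 3 higher and 1 lower call of 313 probes. The median level was -1.84 for mouse lincRNA exons, -2.54 for mouselincRNA probes and -2.51 for both humanlincRNA probes and ultraconserved elements, against -1.33 over all probes that entered. Among probes brighter than the median of all that entered, 4.21% of mouse lincRNA exons were higher, against 8.90% in the unlisted run and 8.23% of the other design numbers.

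AK cDNA probes had the most calls per probe, with 9 of 116 higher (7.76%) and 18 lower (15.5%), and on all 4 arrays 8.91% and 12.9%. Other GenBank accessions had 17 of 715 higher (2.38%) and 41 lower (5.73%). RefSeq mRNA accessions had 2 of 96 higher and 7 lower, Ensembl transcripts 5 of 62 and 8, UCSC transcripts 2 of 42 and 2, and RefSeq non-coding accessions 0 of 5 and 1. Lower calls outnumbered higher calls in 11 of the 12 classes. That lean was not a fixed feature, since it held in 7 classes with median scaling and in 10 with quantile normalization, and both classes of design numbers were among those that turned to more higher than lower calls with median scaling.

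**Figure D4:**
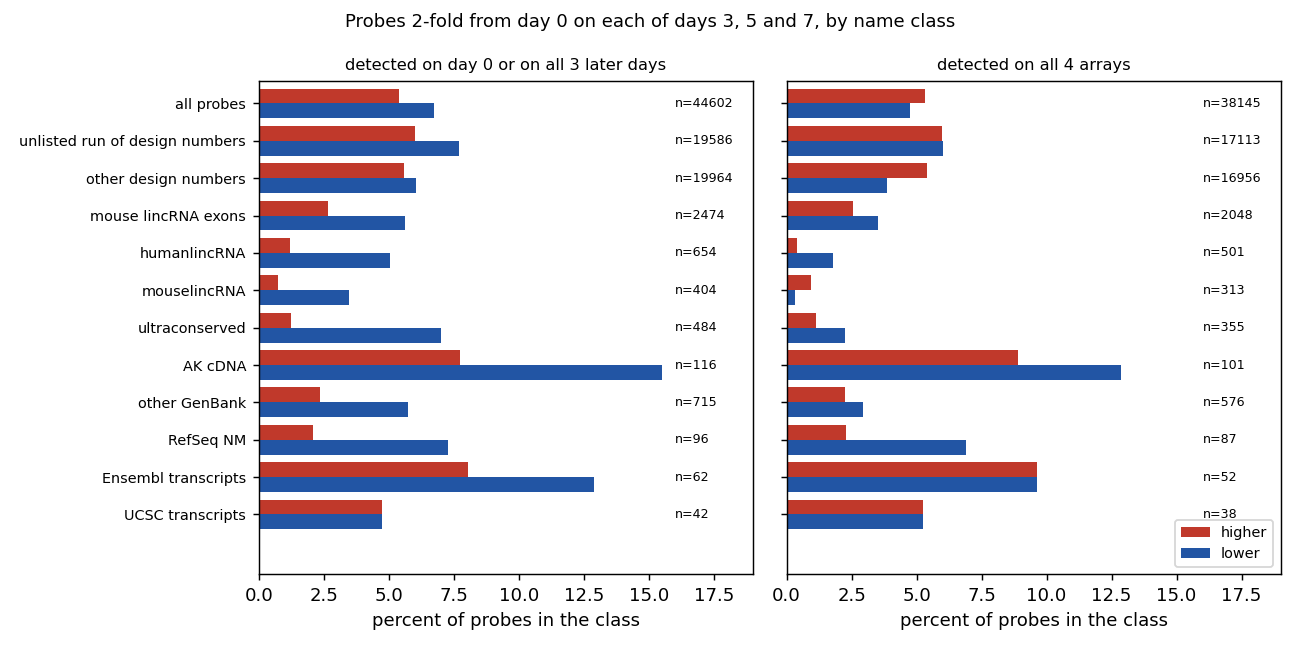
Percent of probes (x axis) at least 2-fold higher (red) or lower (blue) than day 0 on each later day, by class of probe name with 40 or more probes (y axis, n at the right), for probes that entered (left) and for those well above background on all 4 arrays (right). Mouse lincRNA exons, humanlincRNA, mouselincRNA and ultraconserved probes have the shortest red bars beside other GenBank and RefSeq NM accessions, and AK cDNA probes the longest blue bars.

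The leading lincRNA exons were as large in effect as the leading accessions. MM9LINCRNAEXON11442+ went from 3.13 on day 0 to 7.74, 7.43 and 7.93, 19.7-fold higher on the nearest day. MM9LINCRNAEXON11355- went from 1.86 to 5.71, 6.46 and 6.87, and MM9LINCRNAEXON10586- from -2.86 to 1.49, 1.66 and 1.14. The sign at the end of the name is the strand. The lower exons MM9LINCRNAEXON10373-, MM9LINCRNAEXON11312- and MM9LINCRNAEXON10584- were well above background on day 0 alone, at -0.86, -1.36 and -1.78, with bounds of at least 10.4-fold, 7.37-fold and 5.52-fold.

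The array reads both strands of many lincRNA loci. Of 902 mouse lincRNA exon loci whose probes for both strands entered, 5 had both strands higher and 8 both lower, 38 had 1 strand higher and the other neither, 80 had 1 strand lower and the other neither, and 2 had opposite calls. Of 128 ultraconserved elements with both strands, 0 had both higher, 2 had both lower, and 5 and 11 had 1 strand higher or lower and the other neither. Probes for the 2 strands of 1 locus share their source, and these are counts of loci with no test.

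Ultraconserved elements showed small gains and dim losses. uc.462- went from -1.31 to 0.61, 0.62 and 0.33, 3.13-fold higher on the nearest day, and uc.409- from -3.28 to -1.93, -1.79 and -1.52. uc.375+ was not well above background on day 0 and was at least 2.06-fold higher. uc.82+, uc.328- and uc.382- were well above background on day 0 alone and were at least 7.31-fold, 6.14-fold and 2.72-fold lower. With normexp uc.409-, uc.375+ and uc.382- no longer passed 2-fold on each day.

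The fat tissue gave a separate readout of the same probes. Saline brown fat was compared with saline white fat in one limma fit of the 6 tissue arrays. A probe was tested when well above background on both arrays of saline brown, saline white or CL white fat. It could thus enter through white fat alone. Well above background were 55.15% and 67.8% of probes on the brown fat arrays and 74.01% and 77.3% on the saline white fat arrays. How far this rule shaped the counts was not tested. Of 43444 tested probes, 5.54% were higher and 4.87% lower in brown fat at a limma adjusted p under 0.05. Of the 2276 probes lower in the cells that were tested in tissue, 348 were lower in brown fat (15.29%) and 50 were higher (2.20%), and their median difference was log2 -0.81. Of the 36008 tested probes that were neither in the cells, 3.33% were lower and 5.57% higher in brown fat, with a median of log2 -0.05. Of the 2291 tested probes higher in the cells, 206 were higher in brown fat (8.99%) and 189 were lower (8.25%), with a median of log2 0.02. Probes that were lower after day 0 thus lay on the white fat side by count and median, and probes that were higher after day 0 had calls in both directions. In tissue, fewer cells of a type and less RNA per cell cannot be told apart.

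The same pattern of counts held at all brightness levels of the lower probes. In 4 equal bins of brightness in the cells, 13.86% to 16.8% of the lower probes were lower in brown fat, against 2.56% to 4.74% of those that were neither. Among probes well above background on all 4 cell arrays it was 14.38%, against 3.03%. The median difference of the higher probes went from log2 -0.85 in the dimmest bin to 0.26 in the brightest, and that of all probes that entered from log2 -0.44 to 0.003. In the brightest bin 11.5% of the higher probes were higher in brown fat and 5.88% lower, beside 8.01% and 4.28% of all. Mouse lincRNA exons that were lower in the cells had 0 probes higher and 11 lower in brown fat of 87 tested by limma, while those that were neither had 160 higher and 31 lower of 2018. The tissue counts rest on few arrays, and leaving out any 1 saline array made calls much fewer, over all tested probes as in these sets. The arrays left out in turn were brown fat replicates 1 and 2 and white fat replicates 1 and 2. The median difference of the lower probes was then log2 -0.68, -0.88, -0.87 and -0.76. That of the higher probes was log2 0.04, -0.03, 0.03 and -0.01. The brown fat arrays lay in rows 1 and 2 of the slide and the white fat arrays in rows 3 and 4, and row and tissue cannot be told apart here.

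**Figure D5:**
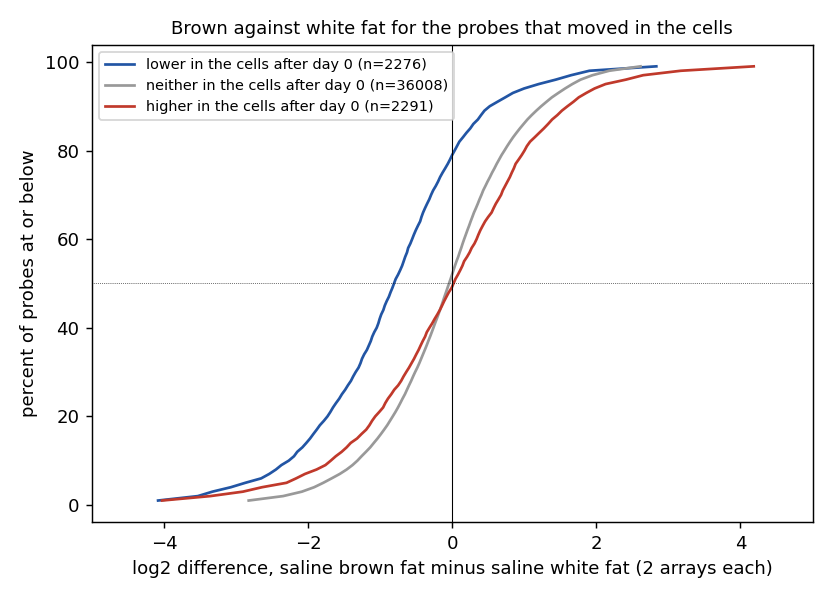
Percent of probes (y axis) at or below a given log2 difference between saline brown and saline white fat (x axis, 2 arrays each), for probes lower (blue, n=2276), higher (red, n=2291) or neither (grey, n=36008) in the cells after day 0. The blue curve is shifted left and crosses 50 percent near its median of -0.81, and the red curve crosses the grey one, with medians of 0.02 and -0.05.

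Among the named probes, 20 of the 22 higher ones were tested in tissue, of which 4 were lower in brown fat and 0 higher. Over all tested probes higher in the cells, 8.25% were lower in brown fat and 8.99% higher. ASMM9PARTA037449, gained at least 187.7-fold in the cells, was lower in brown fat by log2 -3.51 (SE 0.48, limma adjusted p = 0.0110), and ASMM9PARTA028119 by log2 -2.30 (SE 0.35, limma adjusted p = 0.0152). AI530503 and ASMM9PARTA044911 were lower by log2 -1.63 and -2.73 (limma adjusted p = 0.0477 and 0.0344). Over all tested probes lower in the cells, 15.29% were lower in brown fat and 2.20% higher. Of the 27 lower named probes, 15 were tested, with 6 lower in brown fat and 0 higher. These were ASMM9PARTA032454 (log2 -3.82), ASMM9PARTA031869 (log2 -3.19), AK038804 (log2 -2.45), Pramel39 (log2 -2.37), MM9LINCRNAEXON10584- (log2 -1.89) and AK018648 (log2 -1.63), with limma adjusted p from 0.0146 to 0.0466. In brown fat MM9LINCRNAEXON10584- was detected on 0 of 2 arrays, so that it was at least 1.37-fold lower, and Pramel39 and ASMM9PARTA032454 were detected on 1 of 2. Each of these 10 probes, and Gk, kept its sign when any 1 saline array was left out, and 8 of the 11 had no adjusted p under 0.05 in those 4 fits. ASMM9PARTA031791, the largest gain in the cells, did not pass the test between brown and white fat (log2 0.60, SE 0.45, limma adjusted p = 0.416).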

How the data were processed

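RNA from 4 brown adipocyte cultures and 6 fat samples was measured on 1-colour arrays of an Arraystar mouse lncRNA design annotated on mm9, per the labels and file headers. Spot intensity values and flags in the deposited scanner files come from Agilent Feature Extraction, version 11.0.1.1 per the file headers and 9.1 per the submitters' processing notes. The processed signal is background-subtracted, per the file headers. The authors' deposited value table holds log2 values for 18997 probes; its medians for days 0, 3, 5 and 7 were 7.38, 7.36, 7.37 and 7.45, each column correlated with the log2 signal of its own array at 0.999 or more in the cells, which settles scale and direction, and its centring is unknown.

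Control spots, negative control probes and outlier spots were left out (0 spots were saturated), spots of a probe were averaged, and a probe counted as well above background when at least 50% of its spots were. Tissues were fitted with limma 3.58.1 in R 4.3.3 (lmFit, eBayes, two-sided, Benjamini-Hochberg over 43444 probes, 3 residual and 4.45 prior degrees of freedom). The steps were also run on simulated data. For the cells the simulated noise was smaller than the spread between real later days, whose differences had SDs of 0.63 to 0.72. That run checks the code and gives no error rate for these arrays. Probes were named by a rule: called probes with 1 symbol, 3 a direction in each main name class by the smallest daily change, the 3 largest bounds a direction, Actb, Gapdh, Ppia, B2m, Hprt, Tbp, Tfrc, Gk and Csprs, and list members. Symbols came from RefSeq GRCm38.p6 tables, used for names and for the 2 upstream stretches. Of the lists, those for muscle, macrophage, endothelial and lymphoid cells, cell cycle and named long non-coding RNAs had 0 measured members; those for brown adipocytes, actin and adhesion, glucose and reducing power, and iron uptake had Gk, Actb, G6pd2 and Gapdh, and Tfrc. Members, lists and rules were chosen with earlier results of these data known.

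Alternatives were quantile normalization, median scaling, normexp (offset 50), the value table, other filters and folds, and leaving out arrays. The labels call the tissue samples biological replicates without saying that each was 1 animal. The p-values therefore measure the spread between these samples, pooled over the 3 tissue groups, with the CL white fat included.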

Additional observations from a re-analysis of the deposited data

How the results depend on the processing

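The counts of 2409 higher and 3014 lower probes moved by over 1.5 times with normexp (1605 and 1568), a 1.5-fold limit (4135 and 5727), a 4-fold limit (828 and 1086), the mean of the 3 days (3729 and 5337) and limma with the later days as replicates (1175 and 1338), which treats different days as repeats. These settings kept the same 44602 probes. The deposited value table gave 1111 and 578 of 18886 probes. It lists none of the unlisted run or the RefSeq mRNA accessions, so its counts and its share of higher calls do not compare scaling on the same probes. Other filters changed the number of probes as well. When detection on every array was required, 1816 of 38145 probes were lower (4.76%, beside 6.76% in the main set). For probes brighter than the median, a choice made after seeing the data, 1823 of 22301 were higher and 1193 lower. Quantile normalization gave 2785 and 2657, median scaling 3073 and 2346, and leaving out 1 later day gave 2767 to 3390 higher and 3362 to 3912 lower. Higher calls made up 44.42% of all calls, 56.71% with median scaling, 65.78% in the value table and 60.44% in the brighter probes. Classes with more lower than higher calls numbered 11, and 7 with median scaling, 5 in the value table, 6 in the brighter probes and 11 to 12 without 1 later day.

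Gained and lost probes numbered 729 and 997, 5480 and 218 against the percentile of the design's negative probes, 372 and 716 with 2-fold on each day, and 763 to 1297 and 1075 to 2340 without 1 later day. In tissue, higher-higher, higher-lower, lower-higher and lower-lower counts (cells first, brown fat second) were 206, 189, 50 and 348. With the 4 saline arrays alone they were 476, 471, 129 and 911, and without 1 saline array 39 to 53, 30 to 56, 15 to 19 and 33 to 95. With quantile normalization lower-lower was 371, and with normexp 329. The replicate block gave 246, 246, 69 and 496. The labels do not say whether the replicate numbers pair the samples. Replicate-1 deviations correlated at -0.02 and -0.08 between brown fat and the saline and CL white fat, and at 0.50 between these white fat groups. With 2 arrays in each group these correlations cannot settle the pairing. Of 352 alternative values of the 56 named probes, 294 stayed within the spread of the later days, 58 moved and 0 reversed. The 294 include 56 for each later day left out. A mean over the remaining later days cannot leave that spread, so these values could not have moved. With normexp 34 values moved and 22 stayed, with median scaling 14 and 42, and with quantile normalization 7 and 49. A further 3 moved and 13 stayed in the deposited value table. Of the 40 called probes named without a gene symbol, 40 stayed past 2-fold on each day with quantile normalization and with median scaling, and 33 with normexp. At the dim end the depth of signal over background limits every fold.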
